A study of Mus musculus with 2 samples.

Results

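In the mouse the microRNAs miR-23, miR-27 and miR-24 come from a pair of paralogous clusters, Mir23a, Mir27a and Mir24-2 on chromosome 8 and Mir23b, Mir27b and Mir24-1 on chromosome 13. Their rows were picked by gene identity and not by level, and they are 6 of the 1973 miRNA gene rows in each table, namely Mir23a, Mir27a, Mir24-2, Mir23b, Mir27b and Mir3074-1. Mir24-1 and Mir3074-2 have 0 rows of their own. Mir3074-1 lies across Mir24-1 on the other strand, and the opposite-strand reads of its row were taken as those of Mir24-1. All samples were lung of newborn B6NCrl mice at an age of 0 days, with no treatment in the labels, and they formed 1 group of 2 libraries. Replicate 1 was made from the 2 lungs of pup 1 and replicate 2 from those of pup 3 of the same pregnancy, yet a single donor record is attached to both. With no other tissue, age or treatment in the design, the comparisons run between the clusters, within each cluster, and between the pups.

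A primary transcript of such a cluster is cut by Drosha and Dicer into several microRNAs, so the members of a cluster start from the same RNA. A mature microRNA guides Argonaute to messenger RNAs that pair with its seed, bases 2 to 8 counted from the 5′ end. The miR-23, miR-27 and miR-24 families are known from endothelial cells, where miR-23 and miR-27 promote vessel sprouting and have Sprouty2 and Sema6A among their targets. Outside the endothelium, miR-27 is known to restrain fat cell differentiation, miR-23 to repress glutaminase and miR-24 to act on apoptosis.

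The mature sequences are shown first because they decide which reads could be given to a gene. They are from RefSeq on GRCm38.p6, 5′ to 3′, with the seed in capitals. Hairpins matched for all 8 genes looked for. The miR-23b-3p entry is not shown.
miR-23a-3p: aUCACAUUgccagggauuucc
miR-27a-3p: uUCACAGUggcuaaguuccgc
miR-27b-3p: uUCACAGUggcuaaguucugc
miR-24-3p: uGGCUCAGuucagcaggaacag
miR-24-2-5p: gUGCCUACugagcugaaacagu
miR-24-1-5p: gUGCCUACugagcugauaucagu
miR-3074-5p: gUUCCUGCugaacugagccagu

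The miR-27 paralogs shared the seed and 20 of their 21 bases, and they differed by the substitution C19U, counted from 1 at the 5′ end of miR-27a-3p. No mature name of the 1679 searched other than these paralogs carried that seed. The miR-24-3p sequence was the same in both clusters. Its seed was also held by 4 other mature miRNAs, miR-5124b, miR-6369, miR-6410 and miR-6413, whose genes had 0 reads in both libraries. The passenger arms miR-24-2-5p and miR-24-1-5p shared a seed and their first 16 bases. miR-3074-5p, from the strand opposite to miR-24, was complementary to miR-24-3p over 20 bases and was also the same at both loci.

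The hairpins of the miR-23 and miR-24 pairs are printed to show how long the repeated stretch is. Capitals mark the longest stretch that a hairpin shares with its paralog.
Mir23a: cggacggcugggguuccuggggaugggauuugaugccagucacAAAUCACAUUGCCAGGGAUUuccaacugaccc
Mir23b: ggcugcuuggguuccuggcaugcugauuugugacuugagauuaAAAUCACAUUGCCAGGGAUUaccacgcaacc
Mir24-2: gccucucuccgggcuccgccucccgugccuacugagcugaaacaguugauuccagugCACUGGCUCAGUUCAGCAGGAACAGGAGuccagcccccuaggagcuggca
Mir24-1: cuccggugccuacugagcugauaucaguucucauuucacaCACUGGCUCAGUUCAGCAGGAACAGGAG

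The shared stretch was 20 bases long for Mir23a and Mir23b, 20 for Mir27a and Mir27b, 28 for Mir24-2 and Mir24-1, and 30 for Mir3074-2 and Mir3074-1. Reads mapped to several places are totalled on a separate line of the tables, and the gene rows were assumed not to contain them. Among 1005 RefSeq hairpins at 981 places, a read starting at the first base of miR-23a-3p, miR-27a-3p or miR-27b-3p could be told from every other hairpin only from 19 bases on, 2 short of the full length. The full miR-24-3p sequence was found at 2 places, and so was that of miR-3074-5p. The passenger arms of miR-24 could be told apart from 17 bases on. On that assumption the values of Mir24-2 and Mir24-1 leave out reads lying wholly within the 28-base stretch, miR-24-3p among them, and they are given as reads that could be placed.

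On GRCm38, the chromosome 8 genes lie on the plus strand, with Mir23a at chr8:84208518-84208592, Mir27a at chr8:84208672-84208758 and Mir24-2 at chr8:84208815-84208921. GENCODE M21 places Mir23a and Mir27a in no other gene, and Mir24-2 shares its last 2 bases with an exon of the noncoding gene Gm26532. On chromosome 13, Mir23b at chr13:63300484-63300557, Mir27b at chr13:63300712-63300784 and Mir24-1 at chr13:63301208-63301275 lie on the plus strand within 2010111I01Rik, which RefSeq calls Aopep, an aminopeptidase gene. M21 puts Mir23b in an intron of it, and Mir27b and Mir24-1 on exons of some of its transcripts. All of them also lie in an intron of Fancc on the minus strand, the strand of Mir3074-1 at chr13:63301199-63301283. The chromosome 8 cluster spans 404 bases and the chromosome 13 cluster 792, and the gap between the miR-27 and miR-24 hairpins is 56 bases in the former and 423 in the latter. GC content was higher on chromosome 8 in each hairpin pair, with 56.0% in Mir23a against 48.6% in Mir23b, 59.8% in Mir27a against 47.9% in Mir27b, and 61.7% in Mir24-2 against 51.5% in Mir24-1.

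**Figure D1:**
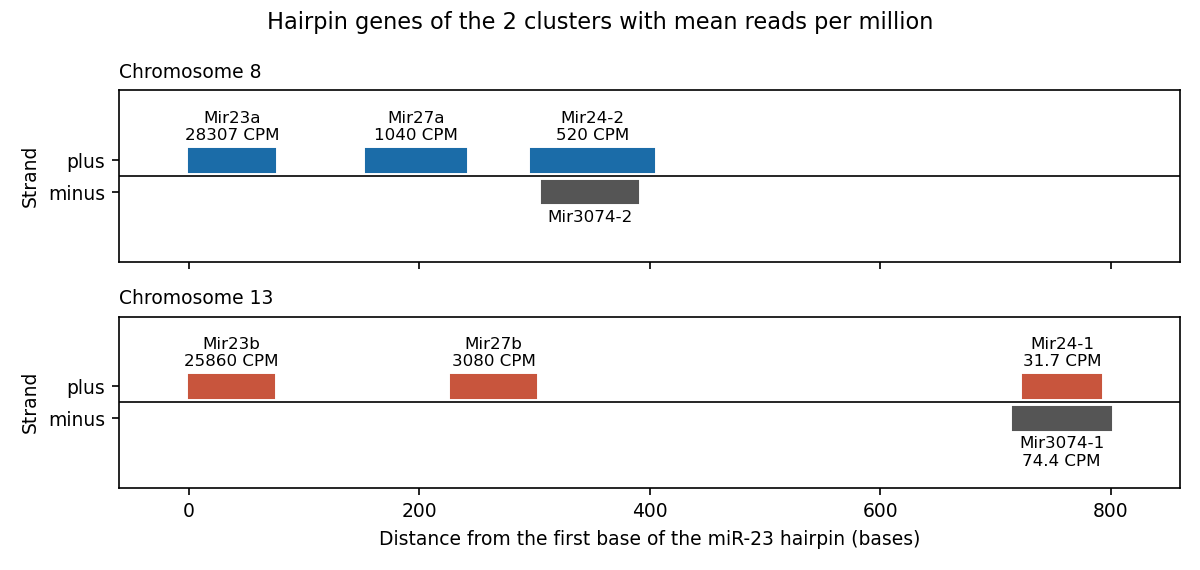
Position of the hairpin genes of each cluster in bases from the first base of the miR-23 hairpin (x axis), by strand (y axis), with the mean CPM (reads scaled to a total of 1000000 own-strand reads on miRNA genes) of the 2 libraries above or below each gene that has a value. The miR-24 hairpin lies 423 bases beyond Mir27b on chromosome 13 and 56 bases beyond Mir27a on chromosome 8, and the Mir3074 genes overlap the miR-24 hairpins on the minus strand.

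Replicate 1 held 4532902 own-strand reads on miRNA genes and replicate 2 held 5426081, and 34.6% and 36.7% of all reads mapped to several places. The 5 epithelial markers, the miR-200 family, were all detected and summed to 30789 CPM in the first library and 30324 in the second, where CPM are reads scaled to a total of 1000000 own-strand reads on miRNA genes. Endothelial markers (3 of 4 with a row) summed to 161377 and 161345 CPM, of which Mir126a alone held 160640 and 160658. The liver miRNA Mir122 stood at 45.9 and 53.1 CPM. Striated muscle markers (6 of 7 with a row, Mir1a-2 without) summed to 407 and 445 CPM with Mir1a-1, Mir133a-1 and Mir133a-2 at 0. Whether reads of these 3 genes lay among those mapped to several places was not tested, so the values of 0 are not read as absence. The remaining lists were smooth muscle and mesenchyme at 71765 and 75591 CPM, and multiciliated cells at 22081 and 22235. Leukocytes (6 of 8 with a row) stood at 3916 and 3610 CPM, and erythroid cells at 1306 and 1149. Among the erythroid markers Mir144 had 1033 and 2253 reads and Mir451a 4822 and 3885. The part of these differences in the comparison of the pups was not tested. In whole lung, more cells of a type and more RNA per cell cannot be told apart.

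Together the reads of the clusters equalled 5.88% ± 0.0486 of the own-strand miRNA total (SD, n = 2), and among those that could be placed nearly all were miR-23. The few Mir24-1 reads, from the opposite-strand column, lie outside that total. The miR-23 pair summed to 54167 ± 122 CPM, the miR-27 pair to 4120 ± 344 CPM and the miR-24 pair to 552 ± 19.9 CPM. The levels count reads on a whole precursor, both arms together, and are not divided by length. Intervals on shares of reads are exact Clopper-Pearson 95% intervals and hold the counting error of reads alone. PCR copies of 1 molecule are counted as separate reads, so the intervals may be too narrow for molecules.

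Mir23a had 123601 reads in replicate 1 and 159234 in replicate 2, or 27268 and 29346 CPM, a mean of 28307 ± 1470 CPM (SD, n = 2). It took 2.73% of the reads in replicate 1 (2.71% to 2.74%) and 2.93% in replicate 2 (2.92% to 2.95%), and ranked 9th of all gene rows. Mir23b had 121541 and 135149 reads, or 26813 and 24907 CPM, a mean of 25860 ± 1348 CPM, and ranked 10th. In reads that could be placed, the paralogs thus stood next to each other among the most abundant miRNA genes of these libraries. How the reads mapped to several places would change these ranks was not tested. The lowest library of Mir23a, at 27268 CPM, was just above the highest of Mir23b, at 26813 CPM, and the means differed by 2447 CPM.

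Mir27b had 13167 reads in replicate 1 and 17658 in replicate 2, or 2905 and 3254 CPM, a mean of 3080 ± 247 CPM (SD, n = 2) at rank 43. Mir27a had 4404 and 6018 reads, or 972 and 1109 CPM, a mean of 1040 ± 97.2 CPM at rank 79. Both libraries of Mir27b lay far above both of Mir27a, so for miR-27 the chromosome 13 gene was the higher.

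For miR-24 the order of the clusters was the other way round in the reads that could be placed. Mir24-2 had 2297 reads in replicate 1 and 2891 in replicate 2, or 507 and 533 CPM, a mean of 520 ± 18.4 CPM (SD, n = 2) at rank 103. Mir24-1 had 139 and 178 reads, or 30.7 and 32.8 CPM, a mean of 31.7 ± 1.51 CPM. Mir3074-1, read from its own strand at the same locus, had 371 and 363 reads, or 81.8 and 66.9 CPM, a mean of 74.4 ± 10.6 CPM at rank 176. At the Mir24-1 locus the minus strand therefore carried more of the placed reads than the plus strand, 72.7% in replicate 1 (exact 95% interval 68.7% to 76.6%) and 67.1% in replicate 2 (63.0% to 71.0%). The paralogous locus on chromosome 8 showed no such signal, with 0 and 1 reads on the strand opposite to Mir24-2, where Mir3074-2 lies. The detection floor of 3 reads was worth 0.662 CPM in the first library and 0.553 in the second, but for Mir3074-2 it limits only reads outside the 30-base stretch.

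**Figure D2:**
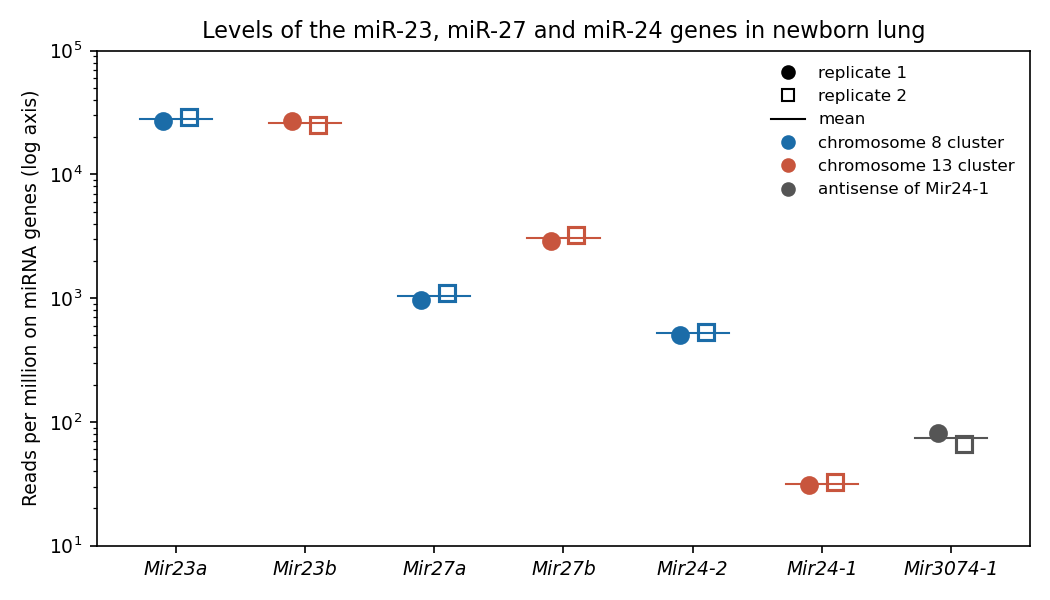
CPM on miRNA genes (y axis, log scale) for each gene (x axis) in replicate 1 (filled circles) and replicate 2 (open squares), with a line at the mean, coloured by cluster. Mir23a and Mir23b lie side by side near 28307 and 25860 CPM, Mir27b lies above Mir27a, and Mir24-2 lies above Mir24-1.

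In falling order the levels ran Mir23a, Mir23b, Mir27b, Mir27a, Mir24-2, Mir3074-1 and Mir24-1, and no neighbouring pair of this order overlapped between its libraries. The 2 genes ranked above and the 2 below each row were set beside it. Mir21a, an injury-associated miRNA, overlapped Mir23b with 26115 and 24633 CPM. Mirlet7i, at 29409 and 29546 CPM, was the next above Mir23a and did not overlap it. Mir181d, Mir381, Mir301 and Mir154, the closest to Mir27a, all overlapped it. Mir27b overlapped Mir181c, Mir106b and Mir541 but not Mir93. Mir24-2 overlapped Mir10b, Mir148a and Mir205 but not Mir188, and Mir3074-1 overlapped Mir326, Mir338 and Mir370 but not Mir363. With 1 group of 2 libraries, nearness of the mean level was the only measure of likeness available.

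The clusters were nearly equal in the summed reads that could be placed, which were mostly those of Mir23a and Mir23b. The chromosome 8 cluster had 28746 CPM in replicate 1 and 30988 in replicate 2, and the chromosome 13 cluster had 29749 and 28194. The chromosome 8 share of the reads of both was 49.1% in replicate 1 (49.0% to 49.3%) and 52.4% in replicate 2 (52.2% to 52.5%), so the order of the clusters differed between the pups. The log2 ratio of chromosome 8 to chromosome 13 was 0.043 ± 0.13 (SD, n = 2), smaller than its own spread. A two-sided exact sign-flip test on 2 libraries cannot give a p under 0.5, so no p is given for this or the following ratios.

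The near equality of the sums did not extend to every pair of paralogs. Mir23a exceeded Mir23b by 0.13 ± 0.15 on the log2 scale (SD, n = 2), with a share of 50.4% of the pair in replicate 1 (50.2% to 50.6%) and 54.1% in replicate 2 (53.9% to 54.3%). The difference between these genes was within the spread of the pups, although each share lay above an even split by more than counting error. Mir27a was lower than Mir27b by a log2 ratio of -1.57 ± 0.019, with Mir27b 2.99-fold higher in replicate 1 and 2.93-fold higher in replicate 2. Mir27a made up 25.1% of the pair in replicate 1 (24.4% to 25.7%) and 25.4% in replicate 2 (24.9% to 26.0%), and these intervals overlapped. Mir24-2 exceeded Mir24-1 by 4.03 ± 0.018, a ratio of 16.5 in replicate 1 and 16.2 in replicate 2. The miR-27 and miR-24 ratios were each many times their SD, and they pointed in opposite directions.

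Within each cluster miR-23 dominated the reads that could be placed, but to different extents. On the assumption above these shares leave out miR-24-3p. Mir23a made up 94.9% of the chromosome 8 reads in replicate 1 and 94.7% in replicate 2, Mir27a 3.38% and 3.58%, and Mir24-2 1.76% and 1.72%. On chromosome 13 Mir23b made up 90.1% and 88.3%, Mir27b 9.76% and 11.5%, and Mir24-1 0.103% and 0.116%. Mir23a exceeded Mir27a 28.1-fold in replicate 1 and 26.5-fold in replicate 2, a log2 ratio of 4.77 ± 0.060 (SD, n = 2). Mir23b exceeded Mir27b 9.23-fold and 7.65-fold, a log2 ratio of 3.07 ± 0.19. The excess of miR-23 over miR-27 was thus greater on chromosome 8 by 1.60 in replicate 1 and 1.79 in replicate 2 on the log2 scale, a mean of 1.70 ± 0.13 or 3.24-fold.

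The miR-24 rows stood lowest in both clusters. Mir23a exceeded Mir24-2 by 5.77 ± 0.024 on the log2 scale (SD, n = 2), while Mir23b exceeded Mir24-1 by 9.67 ± 0.14. Mir27a exceeded Mir24-2 by 1.00 ± 0.084, a ratio of 1.92 in replicate 1 and 2.08 in replicate 2. Mir27b exceeded Mir24-1 by 6.60 ± 0.047, a ratio of 94.7 and 99.2. With 139 and 178 reads of Mir24-1, this SD too understates counting error. How many of the reads mapped to several places belong to miR-24-3p was not tested, so these ratios compare placed reads only. With the either-strand reads of the Mir3074-1 row, which add its own strand, Mir24-2 exceeded Mir24-1 by 2.29 in place of 4.03.

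**Figure D3:**
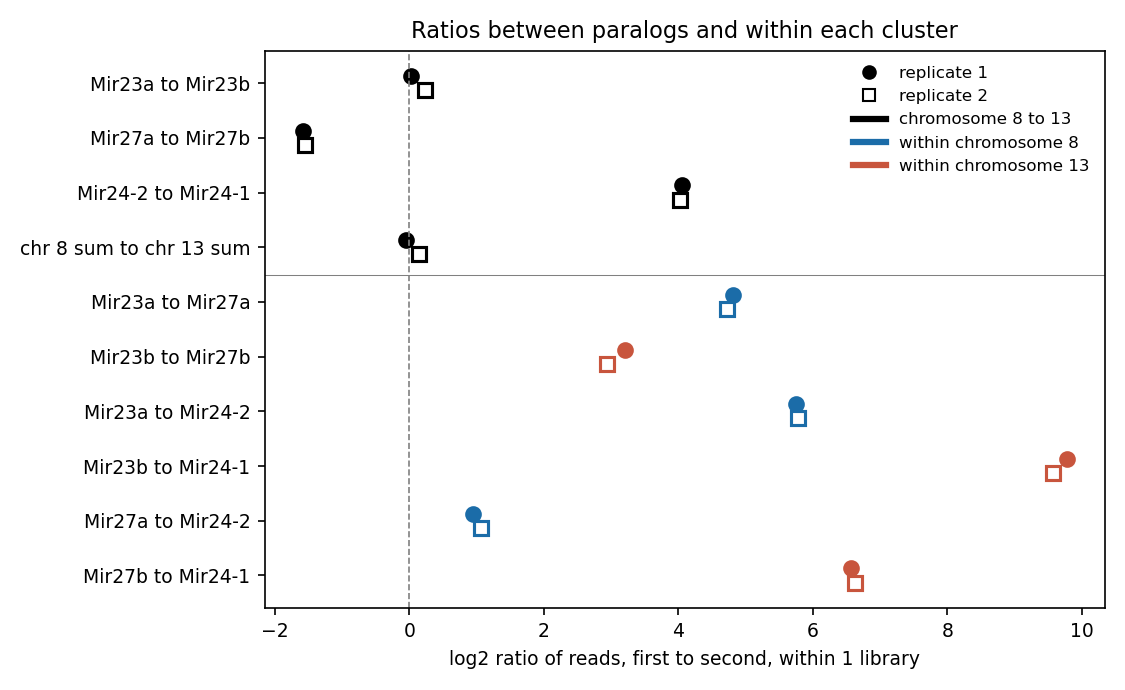
log2 ratio of the reads of a first gene or cluster to a second within each library (x axis), for paralogs and cluster sums (black, upper 4 lines) and for members within the chromosome 8 (blue) and chromosome 13 (red) clusters, with replicate 1 as filled circles and replicate 2 as open squares. The miR-23 pair and the cluster sums sit near 0, the miR-27 pair at -1.57 and the miR-24 pair at 4.03, and Mir23a to Mir27a lies to the right of Mir23b to Mir27b in both libraries.

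To compare the pups, the division of each gene's reads between the libraries was tested two-sided with the exact binomial test, with Benjamini-Hochberg adjustment over 375 genes. It compares these 2 libraries only, with no replicate error. Of the 6 rows, 5 passed an adjusted p of 0.05, 3 higher and 2 lower in replicate 2, where 42.4% of all genes tested passed, and 75.3% of the 146 well counted genes, those averaging 1000 reads or more, which include every row but Mir3074-1. The share of the rows is therefore read against that of well counted genes and does not set them apart. With DESeq2 size factors 58.5% of the calls over all genes were higher in replicate 2, in place of 45.3%.

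The paralogous miR-23 genes moved in opposite directions by like amounts. Mir23a was higher in replicate 2 by 0.11 on the log2 scale (adjusted p = 1.77e-82, exact binomial test) and Mir23b was lower, at -0.11 (adjusted p = 3.59e-76, same exact test). The 2 genes together held 54081 CPM in pup 1 and 54253 in pup 3, a log2 ratio of 0.0046. The directions held with DESeq2 size factors, at 0.16 for Mir23a and -0.053 for Mir23b, so equal amounts depended on the scaling. Scaled by the own-strand totals, both differences were smaller than the median size of 0.16 among the 146 well counted genes.

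Both miR-27 genes were higher in replicate 2. Mir27a had a log2 ratio of 0.19 (adjusted p = 1.21e-10, exact binomial test) and Mir27b of 0.16 (adjusted p = 3.37e-22, same exact test), and their sum was 3876 CPM in replicate 1 and 4363 CPM in replicate 2. On chromosome 13, Mir23b and Mir27b thus differed between the pups in opposite directions within 1 cluster.

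Mir24-2 had a log2 ratio of 0.07 and did not pass (adjusted p = 0.153, exact binomial test), but it passed with TMM sizes at 0.10 (adjusted p = 0.0251, exact) and with DESeq2 size factors at 0.13 (adjusted p = 0.00529, exact). Mir3074-1 was lower in replicate 2 at -0.29 (adjusted p = 0.0183, exact binomial test). It no longer passed with DESeq2 size factors (-0.24, adjusted p = 0.0596, exact) or with either-strand reads, which include those of Mir24-1 (-0.18, adjusted p = 0.103, exact). Mir24-1, whose reads are not a gene row of the own-strand table, was not tested, and its log2 ratio was 0.10.

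**Figure D4:**
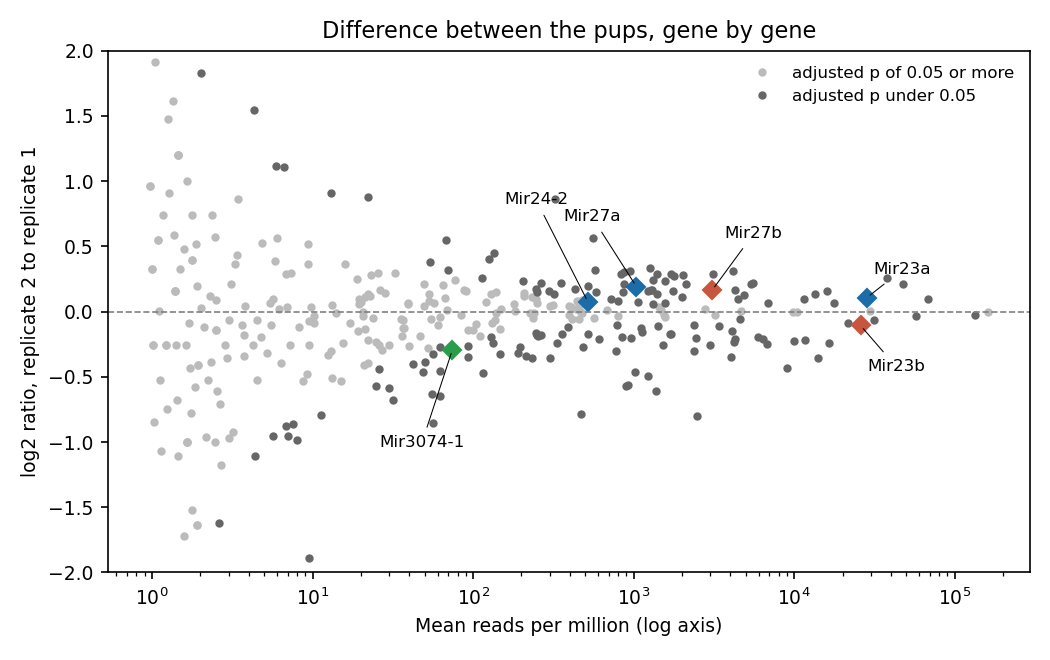
log2 ratio of replicate 2 to replicate 1 (y axis) against mean CPM (x axis, log scale) for the genes tested, dark where the adjusted p was under 0.05, with the 6 rows as labelled diamonds. Of 375 genes, 6 lie outside the y axis and 1 has no reads in 1 library. Mir23a and Mir23b sit on either side of 0 at 0.11 and -0.11, and Mir27a and Mir27b both lie above 0.

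Against other miRNAs known from vessel growth, the miR-23 genes stood high in reads that could be placed. Of 26 such miRNA genes, 24 had a row, Mir18a and Mir92a-1 under the older symbols Mir18 and Mir92-1, and the median level was 673 CPM. Only Mir126a, the endothelial miRNA within Egfl7, at 160640 and 160658 CPM, and Mir322, at 135595 and 133379 CPM, were above Mir23a and Mir23b. Mir130a followed at 22327 and 20960 CPM and the Hox cluster gene Mir10a at 15047 and 16816 CPM. Mir27b was below 8 of the 24, Mir27a below 11 and Mir24-2 below 15. All these levels count placed reads only, and how many of the reads mapped to several places belong to listed genes was not tested. Mir221 and Mir222, which restrain endothelial migration, stood at 465 and 448 CPM and at 271 and 239 CPM, below every miR-23 and miR-27 gene. In the comparison of the pups 16 of the 24 passed, or 66.7%, 4 higher and 12 lower in replicate 2. Of all genes tested 42.4% passed, 72 higher and 87 lower, and of the 146 well counted genes 75.3% passed. Most of the 24 were well counted, so their share does not set the list apart. The median log2 ratio was -0.05 for the list and -0.03 over all genes tested. With DESeq2 size factors 14 of the 24 passed, 6 higher and 8 lower, and over all genes 93 were higher and 66 lower, so the split depended on the scaling.

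The ratio of the cluster sums in placed reads was set beside that of 13 other pairs of paralogous miRNA clusters or genes. The size of the mean log2 ratio was 0.043 for the miR-23, miR-27 and miR-24 clusters and larger in all 13 others, where it ran from 0.22 to 9.88 with a median of 1.57. The nearest were Mir30e and Mir30c-1 over Mir30d and Mir30b at 0.22 ± 0.10 (SD, n = 2) and Mir30a and Mir30c-2 over Mir30e and Mir30c-1 at 0.24 ± 0.079. The 0.043 averages values of opposite sign, -0.049 in replicate 1 and 0.136 in replicate 2. In replicate 2 alone the first of these nearest pairs stood close to it, at 0.146. The ratio of the miR-23 clusters moved by 0.19 between the pups, and most of the other ratios moved by less. The smallest move was 0.0048, for Mir200c and Mir141 to Mir200b, Mir200a and Mir429. The largest was 1.01, for Mir181a-1 and Mir181b-1 to Mir181a-2 and Mir181b-2. These pairs are described, not tested, and 1 of them holds a member without a row. In at least 6 of the 13 the RefSeq hairpins of both sides held the same mature sequence, so that, like Mir24-2 to Mir24-1, those ratios compare only the reads that could be placed. In 4 pairs all hairpins were in the RefSeq table and the sides shared no mature sequence. The size of the ratio in these 4 ran from 0.72 to 4.94. Sequences shared with hairpins outside a pair were not counted. Mir23a and Mir23b made up most of both sums in the miR-23 clusters, and the miR-27 and miR-24 pairs were uneven.

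**Figure D5:**
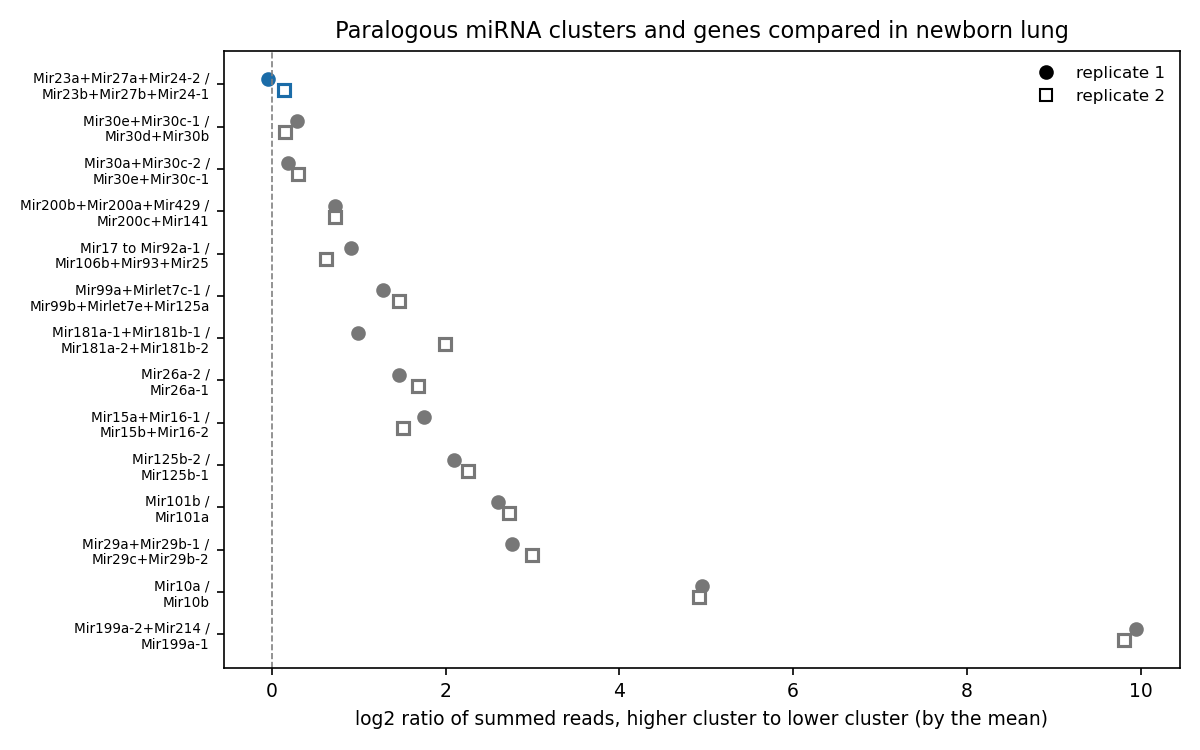
log2 ratio of summed reads of the higher to the lower cluster by the mean (x axis) for 14 pairs of paralogous clusters or genes (y axis), with replicate 1 as filled circles and replicate 2 as open squares. The miR-23, miR-27 and miR-24 clusters (blue) are the only pair whose libraries fall on both sides of 0.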

How the data were processed

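Small RNA of newborn lung was sequenced as microRNA-seq, with 1 library from each of 2 pups. The deposited tables, 1 for each library, hold raw read counts for miRNA genes on mm10 with GENCODE M4, as their deposited description states. For the aligner, the counter and its filters, the settings were not given in the sources used here. In all 1973 gene rows a column of totals is split into 2 further columns, read as own and opposite strand because the former holds 98.2% and 98.0% of the reads. Unmapped reads (8.49% and 8.69%), reads mapped to several places and reads on no feature (2.18% and 2.41%) stayed out of library sizes.

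Identifiers were matched without version to GENCODE M21 (1894 of 1973). The rows of Mir23b, Mir27b and Mir3074-1 carry an older gene version than M21, so the spans counted may differ from those given. CPM were computed from the own-strand total. Members, lists and tests were chosen with earlier results of these data known, and the limit of 1000 reads after the values were seen. Named were the 6 rows, Mir24-1 and Mir3074-2, the 2 genes ranked above and below each row, the vessel growth list and the paralogous pairs. Read counts differed between the tables by more than counting error, with a chi-square per degree of freedom of 75.2. Counting them as 2 pups rests on the labels alone, and the SDs may be partly technical. Genes with at least 10 reads in both libraries together were tested between the libraries with the exact binomial test of scipy 1.17.1, after it was tested on simulated data. With 1 library on a side, edgeR's quasi-likelihood test could not be fitted. Alternatives used TMM sizes from edgeR 4.0.16, DESeq2 1.42.0 size factors, no filter, the either-strand column, other totals, and each library left out. Hairpins were aligned with Biopython 1.88.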

Additional observations from a re-analysis of the deposited data

How the results depend on the processing

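Of 97 values under alternatives, 1 changed sign, the log2 ratio of the chromosome 8 to the chromosome 13 cluster. It ran from -0.049 without replicate 2 to 0.14 without replicate 1, and was 0.020 without the miR-24 members. Levels and counts of genes are among the 97 and could not change sign. Either-strand reads could not move the ratios of genes with no opposite-strand reads. With either-strand reads, which add the own strand of Mir3074-1 to Mir24-1, the log2 ratio of Mir24-2 to Mir24-1 was 2.29, that of Mir23b to Mir24-1 was 7.93 and that of Mir27b to Mir24-1 was 4.86. Scaled to all reads of the library, every level was lower by construction, at 15128 CPM for Mir23a and 17.0 for Mir24-1, and without Mir126a in the total every level was higher, at 33725 and 37.8 CPM. Genes called between the libraries numbered 159, 167 with TMM, 159 with DESeq2 size factors, 147 with no filter and 165 with either-strand reads. Depth limits Mir24-1 most, with 139 and 178 reads, and the part of reads mapped to several places in the miR-24 values was not tested.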
